A study of Mus musculus with 21 samples.

Results

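A list of 10 genes that encode subunits of voltage-gated calcium channels was followed by name through 21 RNA sequencing libraries of mouse dorsal root ganglia, the clusters of sensory neuron cell bodies beside the spinal cord. The listed genes are Cacna1a, Cacna1b, Cacna1c, Cacna1d, Cacna1e, Cacna1h, Cacna2d1, Cacna2d2, Cacna2d3 and Cacnb3, which are 10 of the 24381 genes present in both deposited count tables. All mice carried a floxed Tmem45b allele. The conditional knockout (cKO) mice carried in addition a Cre recombinase driven from Mrgprd, a gene of one class of non-peptidergic nociceptors, so deletion was directed at some ganglion neurons and not at the whole tissue, and mice with the floxed allele alone (flox) were the controls. CFA denotes the complete Freund's adjuvant model, a standard inflammatory pain model. There were 4 cKO and 4 flox libraries from CFA mice. Untreated mice gave a set named con/ko, with 4 cKO and 3 flox libraries, and a set named LDRG, with 3 cKO and 3 flox libraries. Age, the time after CFA, the number of ganglia or animals per library, and the meaning of the letters C, L, F and M in the con/ko names are not given in the labels.

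A high-voltage-activated calcium channel is built around a pore-forming alpha1 subunit, which senses voltage and conducts calcium. A cytoplasmic beta subunit and an extracellular alpha2delta subunit bring the pore to the membrane and shape its opening. Low-voltage-activated (T-type) pores can work without them. In sensory neurons these channels trigger transmitter release in the spinal cord, set firing threshold and link activity to gene expression. The alpha2delta subunit encoded by Cacna2d1 is the main binding target of gabapentin and pregabalin and is known to rise in ganglia after nerve injury in rodents.

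Libraries held 68922332 to 71790252 counts in the CFA set, 53364389 to 65643488 counts in the con/ko set and 62124948 to 72502294 counts in the LDRG set. Levels are given as CPM, a gene's count scaled to its library's total. The 10 genes together took 0.0939 to 0.143% of the counts of a library, and the count of a single one was never below 724 and reached 37037, so all 10 passed the filter on low counts in every comparison. The pan-neuronal markers of the labelled tissue were present: all 12 were detected, and their summed level was 18200 to 22500 CPM in CFA libraries, 15300 to 19200 CPM in con/ko libraries and 23800 to 26000 CPM in LDRG libraries. Tmem45b was 59.9 to 89.1 CPM in untreated cKO libraries and 124 to 179 CPM in untreated flox libraries. In the CFA set it did not separate the labels, with 61.8 to 108 CPM in cKO libraries and 65.9 to 136 CPM in flox libraries, so directions between CFA genotypes rest on the labels alone. Kcnb2, a potassium channel gene, was 151 to 178 CPM in the cKO con/ko libraries and 7.14 to 10.3 CPM in the flox con/ko libraries, and 1 library of each CFA genotype (cKO CFA replicate 4 with 296 CPM and flox CFA replicate 1 with 247 CPM) stood apart from the rest of its group in the same gene. The female-specific transcript Xist was 283 to 459 CPM in CFA libraries, 0 to 320 CPM in con/ko libraries and 0.101 to 0.33 CPM in LDRG libraries, so CFA and LDRG animals also differed in sex. The con/ko libraries held both high and low Xist, so that set differed in sex make-up from the CFA and LDRG sets. The labels do not tie libraries to individual animals. A p-value therefore reflects how far these libraries scatter, and part of that scatter may be technical.

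Read counts depend on transcript length, so levels of different genes were compared as CPM per kilobase of annotated exon. On that scale Cacnb3, a beta subunit gene common in neurons, stood first with 65.4 ± 6.71 CPM per kilobase (SD over 21 libraries). Cacna2d1 followed with 28.2 ± 7.77, and Cacna1b, the N-type pore that carries much of the presynaptic calcium entry in nociceptors and is blocked by ziconotide, with 19.3 ± 2.59 CPM per kilobase. These 3 genes kept this order in 21 of 21 libraries, although Cacna2d1 exceeded Cacna1b by as little as 1.02-fold in 1 library.

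Further down, Cacna1a, the P/Q-type pore, had 10.9 ± 1.74 CPM per kilobase and Cacna2d3, an alpha2delta gene that has been tied to heat nociception in flies and mice, had 9.69 ± 1.44 (SD, n = 21 each). Cacna2d2 had 6.04 ± 0.733, Cacna1h 6.02 ± 0.627 and Cacna1c 5.19 ± 0.886 CPM per kilobase. Cacna2d2 lay above Cacna1h in 12 of 21 libraries, so these neighbours were not ordered beyond their spread. On this scale Cacna1h lay above Cacna1c in 18 of 21 libraries. Cacna1h encodes the T-type pore typical of low-threshold mechanoreceptors and many nociceptors, and Cacna1c the L-type pore of muscle and neurons. Cacna1d, the other neuronal L-type pore, had 1.31 ± 0.196 CPM per kilobase and was above Cacna1e, the R-type pore, with 0.951 ± 0.154, in 21 of 21 libraries.

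The order depends in part on the length used, because annotated exons include long non-coding stretches: Cacna1e has 25.23 kb of exon and 7.25 kb of coding sequence. Per kilobase of coding sequence, an alternative added after the values were seen, 4 of the 45 pairs of the 10 genes turned round. Cacna1e (3.31 ± 0.536 CPM per coding kilobase) lay above Cacna1d (2.44 ± 0.365), Cacna1c (15.6 ± 2.66) above Cacna1h (8.30 ± 0.864) and Cacna2d3 (23.9 ± 3.55) above Cacna1a (17.6 ± 2.80), each in 21 of 21 libraries, and Cacna1c above Cacna2d2 (13.8 ± 1.67) in most (SD, n = 21 each). Cacnb3, Cacna2d1 and Cacna1b stayed the first 3 by mean.

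**Figure D1:**
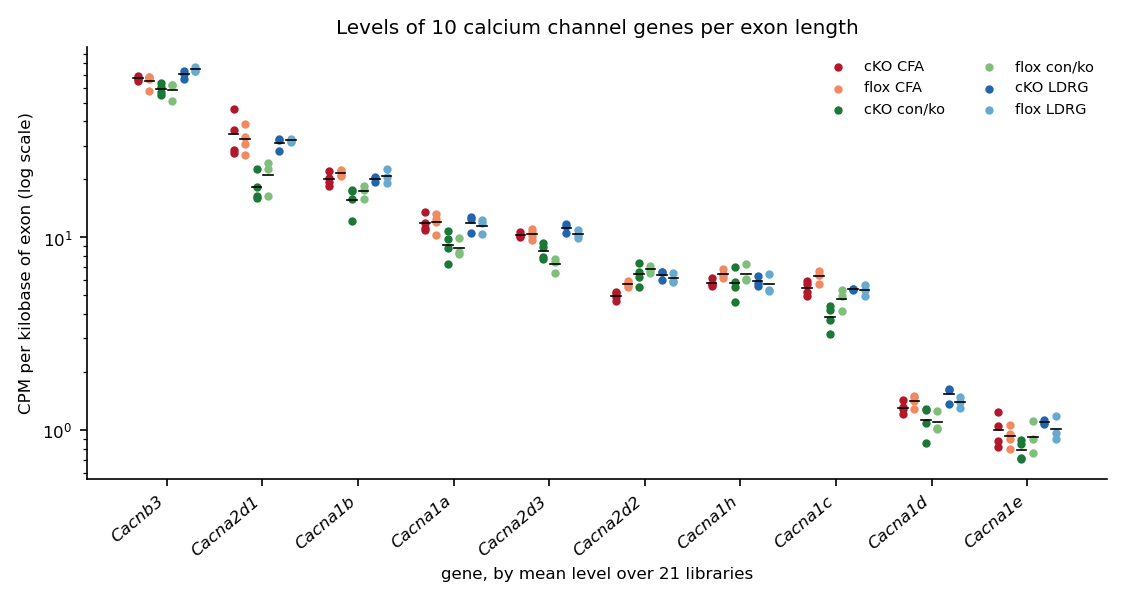
Level of each of the 10 genes in CPM per kilobase of exon (log axis), with 1 point per library, a bar at each group's mean and groups in the order cKO and flox within CFA, con/ko and LDRG. Cacnb3 averages 65.4 and Cacna1e 0.951 CPM per kilobase over the 21 libraries, and Cacna2d2 and Cacna1h lie side by side at 6.04 and 6.02.

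Within the 6 listed pore genes, Cacna1b made up 44.1 ± 1.41% of the summed level per kilobase, Cacna1a 24.9 ± 1.80%, Cacna1h 13.9 ± 1.81% and Cacna1c 11.8 ± 0.949% (SD, n = 21 libraries). Cacna1d and Cacna1e added 3.0 ± 0.293% and 2.19 ± 0.306%. N-type and P/Q-type messages were thus the larger part of the pore RNA of the whole ganglion. Among the 3 listed alpha2delta genes Cacna2d1 held 63.2 ± 6.26%, Cacna2d3 22.4 ± 3.01% and Cacna2d2 14.4 ± 4.09%. Of the beta genes, Cacnb3 held 65.3 ± 2.82% of the level of 4, with Cacnb4 at 22.5 ± 3.17% and Cacnb1 at 11.6 ± 0.841%. Per coding kilobase several of these shares moved: Cacna1c held 21.2 ± 1.52% and Cacna1e 4.53 ± 0.613% of the pores, and Cacnb3 held 53.6 ± 3.68%, Cacnb4 37.7 ± 4.15% and Cacnb1 7.70 ± 0.700% of the beta genes. In bulk tissue, fewer cells of a type and less RNA per cell cannot be told apart, here and in all comparisons that follow.

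Other subunits of the family set the scale at the lower end. The T-type pore Cacna1g had 0.192 ± 0.104 CPM per kilobase and the skeletal-muscle pore Cacna1s 0.223 ± 0.305, whereas the retinal pore Cacna1f (0.0233 ± 0.0138) and Cacna2d4 (0.0183 ± 0.0118) were close to absent (SD, n = 21 each). Cacng7 and Cacnb4 reached 22.8 ± 3.14 and 22.6 ± 4.18 CPM per kilobase of exon, between Cacna2d1 and Cacna1b, although per coding kilobase Cacnb4, at 124 ± 23.0, was above Cacna2d1, at 104 ± 28.8. Cacna1s was 4.93 to 6.82 CPM in the flox con/ko libraries and 0.25 to 0.695 CPM in the cKO con/ko libraries, and the summed level of 12 skeletal muscle markers was 515 to 1020 CPM in the flox con/ko libraries and 6.57 to 17.6 CPM in the cKO con/ko libraries.

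The first comparison asked whether loss of Tmem45b in the Mrgprd lineage went with a different level of these channel genes in untreated ganglia. None of the 10 passed the test, against 0.00599% of the 16706 genes tested, which was 1 gene (Tmem45b itself, at a log2 difference of -1.02) by edgeR's quasi-likelihood test with Benjamini-Hochberg adjustment over all genes and the name set as a term. By the same test 1125 genes and 1 of the 10 had an unadjusted p under 0.05, and DESeq2 called 40 genes and 0 of the 10. The log2 differences between cKO and flox ran from -0.16 for Cacna1c to 0.17 for Cacna2d3, with a median of -0.05 against 0.00 over all genes. The lowest end of a 95% interval was -0.36 for Cacna1c and the highest was 0.30 for Cacna2d3, and the widest interval was that of Cacna1e, from -0.31 to 0.16.

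Cacna2d3 had the smallest p of the list. Its level was 77.4, 67.7, 82.1 and 68.9 CPM in cKO con/ko libraries, against 67.7, 65.2 and 56.8 CPM in flox con/ko libraries. In the LDRG set it was 99.8, 91.5 and 103 CPM in cKO libraries, against 94.9, 87.1 and 89.7 CPM in flox libraries. The genotypes touched in the con/ko set and overlapped in the LDRG set. The log2 difference was 0.17 (SE 0.06), with an unadjusted p of 0.0143 and an adjusted p of 0.675 by edgeR.

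Cacna2d1 showed a genotype difference of -0.14 (SE 0.10) on the log2 scale in untreated ganglia (edgeR, adjusted p 0.858). Within the LDRG set alone it was -0.05 and within the con/ko set alone -0.21. The letters C and L are spread unevenly over the con/ko genotypes, with 3 of 4 cKO and 1 of 3 flox libraries coded C, and with that letter as a term the con/ko value was -0.01. The difference of genotype effects between the sets was tested directly by edgeR: 0 of the 10 genes passed, against 0.00599% of 16706 genes (1 gene), and DESeq2 called 43 genes and 0 of the 10. None of the 10 had an unadjusted p under 0.05 in that edgeR test, against 836 genes (5%).

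In CFA mice the same question gave the same count. Of the 10 genes 0 passed edgeR's test with Benjamini-Hochberg adjustment, against 0% of 16116 genes. An unadjusted p under 0.05 was found for 799 genes and for 3 of the 10, and DESeq2 called 18 genes and 0 of the 10. The log2 differences of cKO against flox ran from -0.20 to 0.11 with a median of -0.05, against 0.01 over all genes.

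The 3 genes were Cacna2d2, Cacna1c and Cacna1h. Cacna2d2, whose alpha2delta product also binds gabapentin and whose loss gives the ducky mouse its ataxia and seizures, was 38.8, 41.2, 37.0 and 41.1 CPM in cKO CFA libraries, against 44.9, 47.4, 46.0 and 44.1 CPM in flox CFA libraries. All 4 cKO values lay below all 4 flox values. The log2 difference was -0.20 (SE 0.06), with an unadjusted p of 0.00648 and an adjusted p of 0.938 by edgeR.

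Cacna1h was 54.4, 60.0, 55.8 and 55.8 CPM in cKO CFA libraries, against 60.1, 62.4, 62.8 and 67 CPM in flox CFA libraries. The groups met without overlapping, at a log2 difference of -0.15 (SE 0.05, unadjusted p 0.0216, adjusted p 0.938 by edgeR). Cacna1c was 105 to 126 CPM in cKO CFA libraries and 122 to 142 CPM in flox CFA libraries, which overlapped, and differed by -0.20 (SE 0.07, unadjusted p 0.0206, adjusted p 0.938 by edgeR). None of these 3 differences passed the adjusted threshold.

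Whether the genotype difference itself changed with CFA was tested as an interaction. Of the 10 genes 0 passed by edgeR, against 0% of 16928 genes. At an unadjusted p under 0.05 there were 707 genes and 2 of the 10, Cacna2d2 at -0.20 (SE 0.09) and Cacna2d3 at -0.19 (SE 0.09), each with an adjusted p of 1 by edgeR, and DESeq2 called 14 genes and 0 of the 10. In these 3 genotype tests none of the 18 other channel subunits, 27 channel regulators, 16 presynaptic release partners and 17 calcium-dependent targets passed either, where tested.

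**Figure D2:**
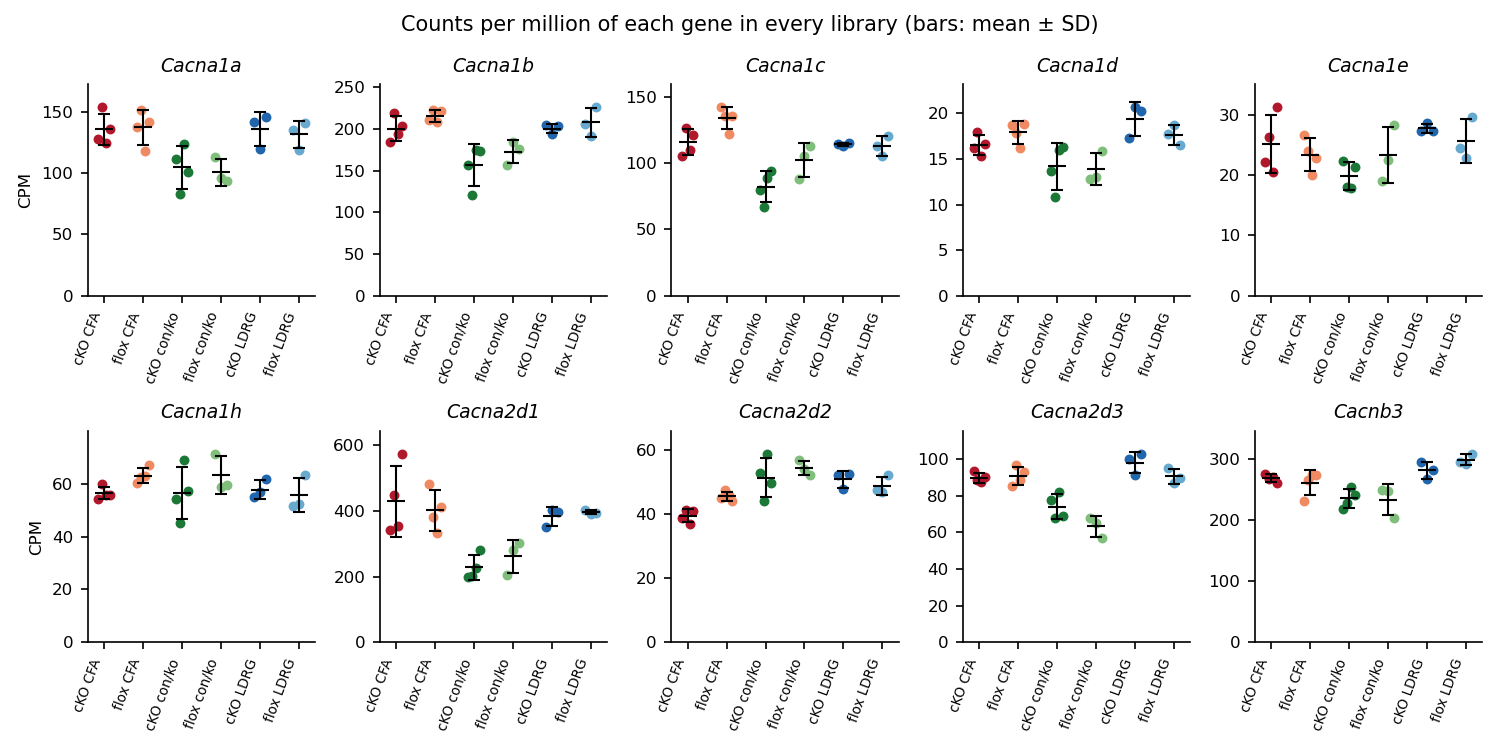
CPM of each gene (linear axis from 0) in every library, with 1 point per library and bars for the mean and SD of each of the 6 groups. Cacna2d1 lies at 334 to 575 CPM in CFA libraries, 199 to 301 CPM in con/ko libraries and 351 to 404 CPM in LDRG libraries, while Cacna2d2 lies lowest in the cKO CFA libraries, at 37.0 to 41.2 CPM.

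CFA was compared with untreated mice separately for each untreated set and genotype, because the sets differ. The comparisons within a genotype share the CFA libraries. The first uses the LDRG set, which is in the same deposited table as the CFA libraries.

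Against LDRG, Cacna2d2 was lower in CFA cKO ganglia. Its 38.8, 41.2, 37.0 and 41.1 CPM in cKO CFA libraries stood against 52.3, 47.9 and 52.4 CPM in cKO LDRG libraries, without overlap. This was a 1.29-fold lower level, at a log2 difference of -0.36 (SE 0.08, adjusted p 0.0272 by edgeR's quasi-likelihood test with Benjamini-Hochberg adjustment). It was the only 1 of the 10 genes to pass, against 1.25% of 16928 genes. The 7 cKO CFA and cKO LDRG libraries were left out 1 at a time. Leaving out any of these other than cKO CFA replicate 1 ended the call. Values ran from -0.40 to -0.33 and adjusted p from 0.0494 to 0.136 by edgeR.

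In flox mice Cacna2d2 was 44.9, 47.4, 46.0 and 44.1 CPM in CFA libraries, against 47.5, 46.8 and 52.1 CPM in LDRG libraries. These groups overlapped, and the log2 difference of -0.10 (SE 0.08) did not pass (adjusted p 0.542 by edgeR). In this comparison 0 of the 10 genes passed, against 3.74% of 16928 genes. By edgeR, 3147 of all genes tested (18.6%) and 2 of the 10 had an unadjusted p under 0.05. The 2 were Cacna1c at 0.25 (SE 0.10) and Cacnb3 at -0.19 (SE 0.07), and DESeq2 called 0 of the 10. The interaction for Cacna2d2 with the LDRG set alone as untreated was -0.27, with an adjusted p of 1 by edgeR, so the genotypes were not shown to differ in this response.

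A fit over both genotypes was added after the values were seen. Cacna2d2 was 37.0 to 47.4 CPM in 8 CFA libraries and 46.8 to 52.4 CPM in 6 LDRG libraries, and its log2 difference was -0.23 (SE 0.05, adjusted p 0.00959 by edgeR), a 1.17-fold lower level in CFA. It was again the only 1 of the 10 to pass, against 11.9% of 16928 genes, and it passed in all 14 fits that left out 1 library. With a pan-neuronal score as a covariate it did not pass (-0.15, adjusted p 0.581 by edgeR).

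Cell markers moved with this comparison. The pan-neuronal sums of 18200 to 22500 CPM in CFA libraries and 23800 to 26000 CPM in LDRG libraries did not overlap, and 4 of the 12 genes were lower in CFA. All 6 red cell genes were higher in CFA (median log2 difference 3.13), with sums of 209 to 627 CPM in CFA libraries and 34.0 to 53.9 CPM in LDRG libraries, and 3 of 8 macrophage markers were higher. Because CFA and LDRG animals also differed in Xist, CFA, sex and these markers cannot be told apart here. Within the con/ko set, Xist was 284 to 320 CPM in the 4 libraries coded F and 0 to 0.206 CPM in the 3 coded M. Cacna2d2 was 44.1 to 56.8 CPM in those coded F and 49.7 to 58.9 CPM in those coded M. These ranges overlapped, but they mix genotypes and the letters C and L, and the part of sex was not tested. Between CFA and LDRG the other 9 genes had log2 differences from -0.14 for Cacna1e to 0.13 for Cacna1c.

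Cacna2d1, the gene whose rise after nerve injury is well known, did not pass against LDRG. It was 341, 448, 353 and 575 CPM in cKO CFA libraries, against 351, 404 and 396 CPM in cKO LDRG libraries. In flox mice it was 481, 381, 334 and 412 CPM in CFA libraries, against 403, 391 and 395 CPM in LDRG libraries. CFA libraries spread on both sides of the narrow LDRG range, and the pooled log2 difference was 0.09 with a 95% interval from -0.16 to 0.35 (adjusted p 0.686 by edgeR). Without the 2 CFA libraries high in Kcnb2, which hold the highest Cacna2d1 value of their groups, it was -0.04. Of 8 nerve injury markers, 7 were lower in flox CFA than in flox LDRG libraries, against 1.8% of 16928 genes. Between cKO CFA and cKO LDRG libraries 0 of the 8 passed, against 1.25% of all genes in both directions. In the genotype by CFA interaction 0 of the 8 passed, against 0% of all genes, so the genotypes were not shown to differ in these markers.

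Against the con/ko set the picture was different for most of the list. The con/ko libraries are in the other deposited table and differ from the CFA libraries in sex make-up. CFA, deposited table and sex make-up therefore cannot be told apart in the comparisons with this set. In cKO mice 6 of the 10 genes were higher in CFA, against 18.4% of 16928 genes, and 1 was lower, against 20.9%. In flox mice 6 were higher, against 16.7% of all genes, and 1 was lower, against 17.7%. Cacna1a, Cacna1b, Cacna1c, Cacna2d1 and Cacna2d3 were higher in both genotypes, Cacnb3 passed in cKO mice and Cacna1d in flox mice, and Cacna2d2 was lower in both. With 1 library left out at a time, Cacnb3 passed in 3 of 8 fits in cKO mice and Cacna1d in 3 of 7 in flox mice. The median log2 difference of the 10 was 0.31 in cKO mice and 0.34 in flox mice, against -0.04 and -0.03 over all genes.

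Cacna2d1 had the largest of these differences in both genotypes. In cKO mice its 341, 448, 353 and 575 CPM in CFA libraries stood against 199, 203, 227 and 282 CPM in con/ko libraries, a 1.88-fold higher level (log2 difference 0.91, SE 0.16, adjusted p 2.5e-04 by edgeR). In flox mice its 481, 381, 334 and 412 CPM in CFA libraries stood against 205, 281 and 301 CPM in con/ko libraries, a 1.53-fold higher level (0.62, SE 0.17, adjusted p 0.011 by edgeR), a call that was lost without flox con/ko replicate 4. Neither pair of groups overlapped. With both genotypes together, and without the 2 CFA libraries high in Kcnb2, the gene still passed.

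Cacna2d2 went the other way. It was 38.8, 41.2, 37.0 and 41.1 CPM in cKO CFA libraries, against 52.9, 44.1, 58.9 and 49.7 CPM in cKO con/ko libraries, a 1.30-fold lower level (log2 difference -0.38, SE 0.07, adjusted p 4.2e-04 by edgeR). In flox mice it was 44.9, 47.4, 46.0 and 44.1 CPM in CFA libraries, against 56.8, 54.2 and 52.2 CPM in con/ko libraries, a 1.19-fold lower level (-0.25, SE 0.08, adjusted p 0.0152 by edgeR), a call also lost without flox con/ko replicate 4. CFA and con/ko values did not overlap in either genotype.

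Among the pores, Cacna1c differed by 0.49 (SE 0.09) in cKO and 0.39 (SE 0.10) in flox mice, Cacna1a by 0.37 (SE 0.11) and 0.45 (SE 0.12), and Cacna1b by 0.35 (SE 0.09) and 0.32 (SE 0.10). Cacna1h differed by 0.00 in both genotypes (95% intervals from -0.21 to 0.21 in cKO and from -0.23 to 0.23 in flox mice). Over both genotypes in 1 fit, added after the values were seen, 7 of the 10 were higher in CFA, against 24.1% of 16928 genes, and 1 was lower, against 28%. Cacna1e (0.17, SE 0.10) and Cacna1h (0.00, SE 0.07) were the ones that did not pass.

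The flox comparison rested in part on 1 library, flox con/ko replicate 4, the only flox con/ko library coded C. Without it fewer flox con/ko libraries remained for every gene, and 2 of the 10 genes passed in place of 7. Cacna1a and Cacna2d3 were those that still passed; Cacna2d1, at 0.47 (adjusted p 0.0699 by edgeR), and Cacna2d2, at -0.22 (adjusted p 0.0659), were among those that did not. The summed skeletal muscle markers were 4.83 to 118 CPM in flox CFA libraries and 515 to 1020 CPM in flox con/ko libraries, and with a muscle score as a covariate 1 of the 10 passed. The pan-neuronal sum was also higher in CFA than in con/ko libraries of each genotype, at 21400 to 22500 against 16300 to 19200 CPM in cKO and 18200 to 21700 against 15300 to 17100 CPM in flox mice, and 7 and 9 of its 12 genes passed as higher. With a pan-neuronal score as a covariate, 4 of the 10 genes passed in cKO mice and 2 in flox mice. Cacna2d1 was among these in both genotypes, and Cacna1e passed in cKO mice in that fit and not without the covariate. For the fits with a covariate or without a library, the share of all genes passing is not given here. These drops are thus not shown to be particular to the 10 genes.

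**Figure D3:**
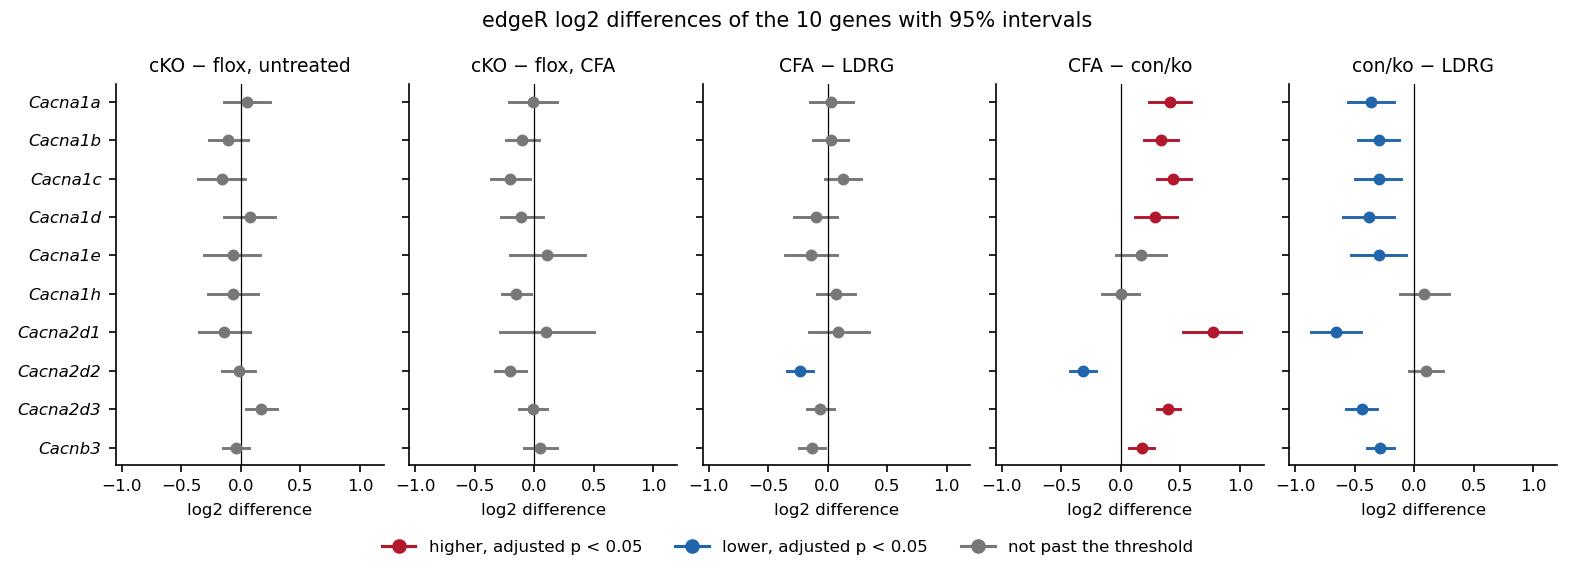
Log2 differences of the 10 genes from edgeR (points) with 95% intervals not adjusted for the number of genes (lines), in 5 comparisons, with CFA against LDRG and CFA against con/ko over both genotypes. No gene passes between genotypes, Cacna2d2 alone passes between CFA and LDRG, and 8 genes pass in each of the panels that contain the con/ko set.

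The untreated sets themselves differed. Of the 10 genes, 8 were lower in the con/ko set than in the LDRG set, against 21.3% of 16706 genes, and 0 were higher, against 26.1%, by edgeR's quasi-likelihood test with Benjamini-Hochberg adjustment and genotype as a term. The median log2 difference of the 10 was -0.30, against 0.04 over all genes. These con/ko and LDRG libraries are the same ones that CFA was compared with above.

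Cacna2d1 was 199, 203, 227 and 282 CPM in cKO con/ko libraries, against 351, 404 and 396 CPM in cKO LDRG libraries. It was 205, 281 and 301 CPM in flox con/ko libraries, against 403, 391 and 395 CPM in flox LDRG libraries. All 7 con/ko values lay below all 6 LDRG values, a 1.58-fold lower level at a log2 difference of -0.66 (SE 0.10, adjusted p 1.4e-04 by edgeR).

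Cacna2d3 was 1.36-fold lower, with 56.8 to 82.1 CPM (median 67.7) in the 7 con/ko libraries and 87.1 to 103 CPM in the 6 LDRG libraries (log2 difference -0.44, SE 0.06, adjusted p 7.2e-05 by edgeR). Cacnb3 was 204 to 255 CPM in con/ko libraries and 268 to 309 CPM in LDRG libraries, at -0.29 (SE 0.05). Cacna1b was 121 to 184 CPM in con/ko libraries and 191 to 226 CPM in LDRG libraries, at -0.30 (SE 0.08). For these genes and for Cacna1d, at -0.38 (SE 0.10), no con/ko value reached an LDRG value.

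Cacna1a at -0.36 (SE 0.09), Cacna1c at -0.30 (SE 0.09) and Cacna1e at -0.30 (SE 0.11) also passed, with values that overlapped between the sets. Cacna1e lost its call in 5 of the 13 fits that left out 1 library, and in a fit restricted to con/ko libraries coded L both Cacna1c (-0.14) and Cacna1e (-0.15) no longer passed. Cacna2d2 differed by 0.10 (SE 0.06) and Cacna1h by 0.08 (SE 0.10), and neither passed. Cacna2d2 was 44.1 to 58.9 CPM in con/ko libraries and 46.8 to 52.4 CPM in LDRG libraries, and Cacna1h was 45.3 to 71.4 CPM in con/ko libraries and 51.6 to 63.2 CPM in LDRG libraries.

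Markers of cell types moved with the same split. Of 12 pan-neuronal markers, 10 were lower in con/ko (median -0.42), and the sums of the sets did not overlap. Of 8 Schwann cell markers 6 were higher, of 8 macrophage markers 8, of 6 red cell markers 6 and of 8 central glia markers 6. The central glia sum was 45.9 to 101 CPM in con/ko libraries coded C and 20.9 to 31.9 CPM in LDRG libraries. In con/ko libraries coded L it was 16.8 to 21 CPM, so the higher central glia level was not seen there. The summed Schwann cell level was 5980 to 13700 CPM in con/ko libraries and 4740 to 6510 CPM in LDRG libraries, and the red cell sum was 1630 to 4470 CPM in con/ko libraries and 34.0 to 53.9 CPM in LDRG libraries. With a pan-neuronal score as a covariate, 0 of the 10 genes and 13 genes in all passed; the score itself did not overlap between the sets. Name set, deposited table and the neuronal, Schwann cell, macrophage and red cell markers cannot be told apart. The part of central glia RNA was not tested. The sets also differed in Xist, at 0 to 320 CPM in con/ko and 0.101 to 0.33 CPM in LDRG libraries. The part of sex in these differences was not tested.

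The balance between the alpha2delta genes was followed as a ratio. Both ratios given here were chosen after the values were seen, from genes already known to differ in how they stood between these libraries, so they are described without a test. The ratio of Cacna2d1 to Cacna2d2 CPM within a library depends on neither depth nor scaling. It was 8.78, 10.9, 9.53 and 14 in cKO CFA libraries and 10.7, 8.03, 7.26 and 9.33 in flox CFA libraries. It was 3.77, 4.60, 3.85 and 5.67 in cKO con/ko libraries and 5.76 at most in flox con/ko libraries. In LDRG libraries it was 6.71 to 8.49.

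Every con/ko ratio lay below every LDRG and CFA ratio. The log2 ratio differed by -0.78 between con/ko and LDRG (7 and 6 libraries). It differed by 1.08 between CFA and con/ko (8 and 7 libraries). Between CFA and LDRG it differed by 0.30 (8 and 6 libraries), with values that overlapped.

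The ratio of Cacna1h to Cacna1b, a T-type against an N-type pore, was 0.273 to 0.304 in CFA libraries, 0.318 to 0.454 in con/ko libraries and 0.251 to 0.305 in LDRG libraries. Again the con/ko values stood apart, here above the others. The log2 difference was 0.38 between con/ko and LDRG, -0.33 between CFA and con/ko and 0.05 between CFA and LDRG.

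**Figure D4:**
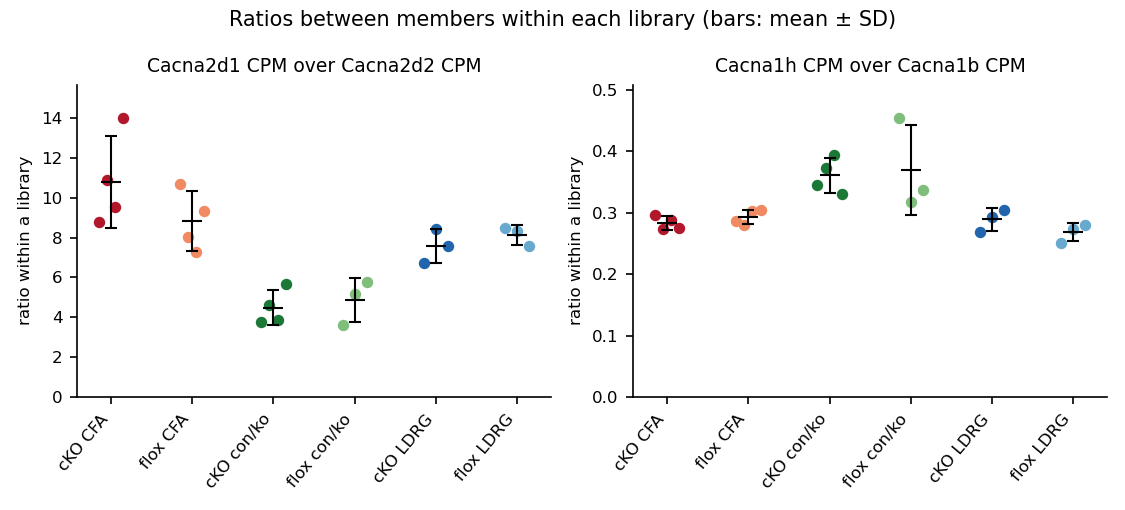
Ratio of Cacna2d1 to Cacna2d2 CPM and of Cacna1h to Cacna1b CPM within each library (linear axes from 0), with 1 point per library and bars for the mean and SD of each group. The con/ko libraries lie lowest in the first ratio, at 3.61 to 5.76, and highest in the second, at 0.318 to 0.454.

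The start regions are described for the alpha2delta genes, which are of the same family. Across the sets Cacna2d1 and Cacna2d3 moved the same way, with con/ko below both LDRG and CFA, and Cacna2d2 did not. RefSeq promoters (GRCm38.p6) were matched for 8 of the 10 genes, and the 250 bases before the start that RefSeq annotates are printed for Cacna2d1 and Cacna2d3 in lower case on the strand of the gene, with matches to the GC box GGGCGG on either strand in capitals.
Cacna2d1, chr5:15934441-15934690, + strand: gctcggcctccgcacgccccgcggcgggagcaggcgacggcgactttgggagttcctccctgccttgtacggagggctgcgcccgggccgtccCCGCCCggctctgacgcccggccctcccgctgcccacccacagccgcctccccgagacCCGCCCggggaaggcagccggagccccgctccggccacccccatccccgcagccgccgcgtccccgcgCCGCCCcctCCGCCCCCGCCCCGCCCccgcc
Cacna2d3, chr14:29721865-29722114, - strand: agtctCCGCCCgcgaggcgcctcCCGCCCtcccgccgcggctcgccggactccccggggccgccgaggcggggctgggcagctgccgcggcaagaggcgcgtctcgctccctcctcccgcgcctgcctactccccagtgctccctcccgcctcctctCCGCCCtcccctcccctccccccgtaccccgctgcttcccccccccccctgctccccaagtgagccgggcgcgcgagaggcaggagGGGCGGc
The Cacna2d1 window holds 6 GC boxes at 82.4% G and C, and the Cacna2d3 window 4 at 80.0%. The Cacna2d2 window (chr9:107399630-107399879, + strand) holds 1 at 74.4%, but it lies inside the gene as GENCODE annotates it, which starts at 107399612, so it is not the sequence before that start and its letters are not shown. A GC box was present in 32.7% of 32851 RefSeq promoter windows of this length, whose median G and C content was 52.4%. None of the 3 windows holds the letters TATAAA, which 12.4% of all windows hold or the E-box CACGTG, which 6.02% hold. A match is a description of letters and not evidence that a factor binds.

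Cacna2d1 lies on chromosome 5 from 15934691 to 16374511 and Cacna2d2 on chromosome 9 from 107399612 to 107529343, both on the + strand. Cacna2d3 lies on chromosome 14 from 28904943 to 29721864 on the - strand, and Cacna1d follows on the same chromosome and strand from 30039939 to 30491455 (mm10, GENCODE annotation).

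Inside the con/ko set the letters C and L also went with 1 of the genes. Cacna2d1 was 199, 203, 227 and 205 CPM in the 4 libraries coded C, against 282, 281 and 301 CPM in the 3 coded L, without overlap and in both genotypes. Within each genotype 1 side was a single library: cKO replicate 7 alone was coded L, and flox replicate 4 alone was coded C. The log2 difference with genotype as a term was -0.45 (SE 0.08, adjusted p 0.0472 by edgeR). It was the only 1 of the 10 to pass, against 1.36% of 16440 genes. Leaving out any library other than flox con/ko replicate 5 ended the call, with values from -0.49 to -0.42. The 8 central glia markers summed to 45.9 to 101 CPM in libraries coded C and 16.8 to 21 CPM in those coded L, and their part in the difference was not tested. All 4 C values and all 3 L values of Cacna2d1 lay below the LDRG range.

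Libraries of 1 group varied together in some of the genes. With each gene's group mean removed, 35 of the 45 pairs of the 10 genes correlated positively over 21 libraries, with a median Pearson r of 0.42. These values are descriptive, since all points share library depth and composition. Cacna1b and Cacna1c had the highest value, at 0.89, followed by Cacna1a and Cacna2d2 at 0.84 and Cacna1h and Cacna2d2 at 0.79. Cacna1e and Cacna2d1 correlated at 0.76. Cacnb3 ran against both, with -0.58 for Cacna1e and -0.39 for Cacna2d1.

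The CFA libraries high in Kcnb2 show this contrast. Cacna1e was 31.3 CPM in cKO CFA replicate 4 and 20.6 to 26.4 CPM in the other cKO CFA libraries. It was 26.7 CPM in flox CFA replicate 1 and 20.1 to 24 CPM in the other flox CFA libraries. Cacnb3 was 261 CPM in the first of these libraries and 268 to 276 CPM in the other cKO CFA libraries, and 232 CPM in the second and 266 to 274 CPM in the other flox CFA libraries. In flox con/ko replicate 6 the same 3 genes stood the same way, with Cacna2d1 at 301, Cacna1e at 28.3 and Cacnb3 at 204 CPM, and Kcnb2 was not high there, since no flox con/ko library exceeded 10.3 CPM. Not every library followed. In flox LDRG replicate 3 both Cacna1e (29.7 CPM) and Cacnb3 (309 CPM) were the highest of their group. In cKO con/ko replicate 4 Cacna1e was the highest of its group (22.3 CPM) and Cacna2d1 the lowest (199 CPM).

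**Figure D5:**
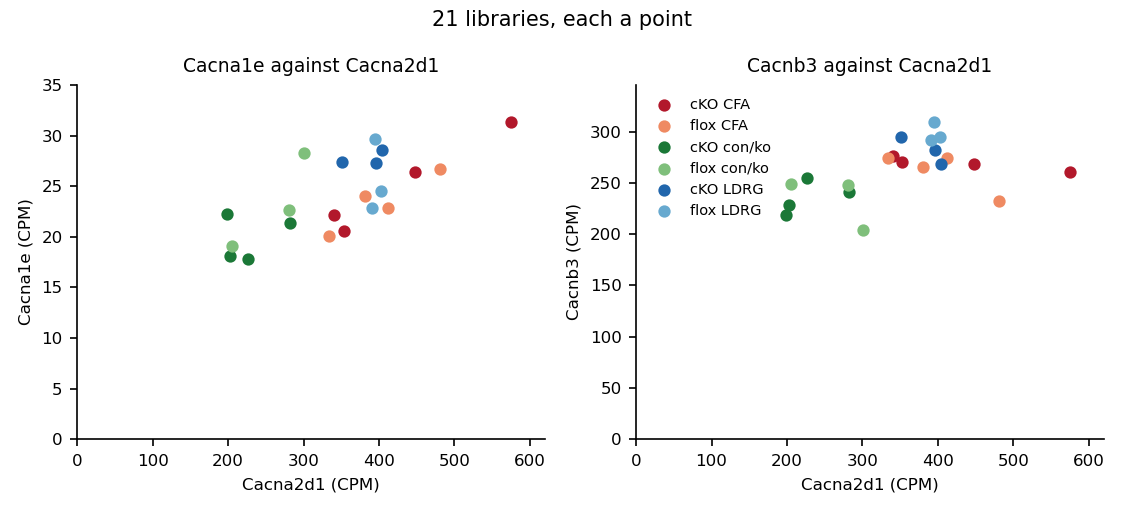
CPM of Cacna1e (left) and Cacnb3 (right) against CPM of Cacna2d1, with 1 point per library and all axes from 0. The library with the highest Cacna2d1 (575 CPM, cKO CFA replicate 4) also has the highest Cacna1e (31.3 CPM), and the con/ko libraries reach 301 CPM of Cacna2d1.

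A search over 14234 genes named those whose deviations from group means were most like each gene's over the 21 libraries. For Cacna1b these were L1cam, Slit1 and Arhgef11, each at an r of 0.98, and for Cacna1a Agpat3 (0.96), Slc6a17 (0.95) and the sodium channel gene Scn8a (0.94). For Cacna1c they were Klf7, Phf24 and Dicer1 at 0.95. Cacna2d1 was most like Osbpl8 and Avl9 at 0.96 and Acsl4 at 0.95. The other alpha2delta genes had different nearest genes: Tnks1bp1 (0.89), Apba2 and Atp2b2 (0.87) for Cacna2d2, and Ogdhl and Scn4b (0.92) and Ehd3 (0.91) for Cacna2d3. The nearest genes of Cacnb3 were Ppp2r5b and Crmp1 at 0.90, of Cacna1d Golim4 at 0.90, of Cacna1e Arhgef6 at 0.90, and of Cacna1h Sbf1 at 0.87.

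Of 18 other subunits and relatives of the channel, 2 were higher and 7 lower in con/ko than in LDRG, where 26.1% of all genes tested were higher and 21.3% lower. Cacna1g was higher by 1.97 (SE 0.20), with 2.08 to 4.42 CPM in con/ko libraries and 0.526 to 0.963 CPM in LDRG libraries, and Cacna1i, another T-type pore, by 0.49. Cacnb1 differed by -0.38, Cacnb4 by -0.20 and the transmembrane partners Cacng2, Cacng4, Cacng5 and Cacng8 by -0.30, -0.34, -0.28 and -0.84. The T-type pores Cacna1g and Cacna1i thus passed as higher in con/ko while Cacna1h did not pass.

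Between flox CFA and flox LDRG libraries Cacna1g was the only 1 of the 18 to pass, against 3.74% of 16928 genes. It was higher by 1.33 (SE 0.31, adjusted p 0.0209 by edgeR), with 1.18 to 2.37 CPM in CFA libraries and 0.526 to 0.883 CPM in LDRG libraries. Between cKO CFA and cKO LDRG libraries 0 of the 18 passed, against 1.25% of all genes. Against con/ko, Cacnb4 was higher in CFA by 0.58 in cKO and 0.38 in flox mice, and 3 of the 18 were higher and 2 lower in each genotype, against 18.4% and 20.9% of all genes in cKO and 16.7% and 17.7% in flox mice.

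Genes that work with the channels also differed between the untreated sets, as did many genes: 26.1% of all genes tested were higher and 21.3% lower in con/ko than in LDRG. Of 16 presynaptic release partners, 7 were lower in con/ko than in LDRG and 1, Stx1a, a syntaxin that binds the N-type pore, was higher by 0.30. The lower ones included Snap25 at -0.41, Erc2 at -0.44 and Rims2 at -0.33. In CFA against con/ko, 8 of the 16 were higher and 1 lower in cKO mice, and 9 higher and 1 lower in flox mice, where 18.4% and 20.9% of all genes were higher and lower in cKO mice and 16.7% and 17.7% in flox mice, with Pclo at 0.60 in cKO and 0.39 in flox mice.

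Of 27 channel regulators, 4 were higher and 8 lower in con/ko than in LDRG, beside the same 26.1% and 21.3% of all genes. Those higher were Thbs1 (2.19), Thbs2 (0.77) and Thbs4 (1.64), thrombospondins that bind the alpha2delta subunit, and Lrp1 (0.79), a receptor reported to traffic it. Those lower included the calmodulin gene Calm2 at -0.59. Thbs1 was also higher in CFA than in LDRG, by 1.52 in cKO mice (SE 0.34, adjusted p 0.0387 by edgeR) and 2.27 in flox mice (SE 0.36, adjusted p 0.00211 by edgeR). Of 17 calcium-dependent targets, 3 were higher and 8 lower in con/ko than in LDRG, beside 26.1% and 21.3% of all genes, among them Bdnf at -1.07, the calcineurin genes Ppp3r1 at -0.46 and Ppp3cb at -0.43, and Nfatc4 at 1.36. Bdnf was also lower in flox CFA than in flox LDRG libraries, by -0.67 (SE 0.09, adjusted p 8.1e-04 by edgeR).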

How the data were processed

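Poly-A RNA libraries of dorsal root ganglia were sequenced as paired reads, per the labels. The authors deposited raw read counts per gene, in a table of 14 libraries (24524 genes) and a table of 7 (24512 genes); the 24381 shared genes were used. Per the submitters' processing notes fastp 0.23.2, BWA 2.2.1, SAMtools 1.14, DESeq2 1.40.2 and mm10 were used. BWA is not splice-aware, and the sources used here name no counting tool. In the table of 14, counts of 4 were commoner than counts of 3 (4068 against 2096 values), which leaves the counting unit uncertain. Over 27 replicate pairs, chi-square per degree of freedom was 26.9 to 150, so no library was a copy of another in its group. Pairs across groups were not examined.

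Groups came from sample titles. CPM used library sizes with TMM factors over all 21 libraries. Tests used edgeR 4.0.16 in R 4.3.3 (filterByExpr by group, minimum count 10, total 15; TMM; quasi-likelihood F test; Benjamini-Hochberg over all genes, threshold 0.05). DESeq2 1.42.0, other filters and scalings, covariates and left-out libraries were alternatives. CFA comparisons were fitted with all 6 groups. Genes were named by the member list; genes of the other lists were named among those that passed, and nearest genes were the first by Pearson r of log2(CPM + 0.5), among genes with a mean of at least 1 CPM. The listed genes and all gene lists were chosen with earlier results of these data known. The edgeR fit was tested on simulated counts.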

Additional observations from a re-analysis of the deposited data

How the results depend on the processing

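In genotype and interaction comparisons 0 of the 10 genes passed under every alternative run, including the replicate block. DESeq2, which called more genes in all, moved the count of the 10 by at most 1 in any comparison. A pan-neuronal score as covariate lowered the count passing to 0 from 1 in cKO CFA against cKO LDRG, to 4 from 7 in cKO CFA against con/ko, to 2 from 7 in flox CFA against con/ko, to 0 from 1 and to 3 from 8 in CFA against LDRG and con/ko with both genotypes, to 0 from 8 in con/ko against LDRG, and to 0 from 1 in C against L. In that fit Cacnb3 turned to -0.07 in cKO CFA against con/ko, -0.10 with both genotypes and 0.16 in con/ko against LDRG. A muscle score left 1 in flox CFA against con/ko and 0 in C against L, where no filter and a mean of at least 5 CPM also gave 0. The L-coded con/ko libraries alone gave 4 in cKO CFA against con/ko, with fewer samples. Leaving out 1 library each gave 0 to 1 in cKO CFA against cKO LDRG, 2 to 7 in flox CFA against con/ko and 0 to 1 in C against L. For most of these covariate and left-out-library fits the share of all genes passing is not given. The causes were not tested.

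Numbers did not pair the libraries: same-numbered deviations correlated at -0.14 to 0.32. The replicate block gave 0 of the 10 in cKO CFA against cKO LDRG (Cacna2d2, adjusted p 0.0668 by edgeR) and changed no other count.

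Over all genes, edgeR against DESeq2 called 1 against 40 between untreated genotypes, 0 against 18 between CFA genotypes, 211 against 834 in cKO CFA against LDRG, 633 against 1188 in flox CFA against LDRG and 224 against 1467 in C against L. The lowest count of the 10 genes in any library was 724, and each group held 3 or 4 libraries.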
